A study of Rattus norvegicus with 6 samples.

Results

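The large heat shock proteins and chaperones examined here are the Hsp70 and Hsp110 proteins, the Hsp90 proteins, the chaperonins, the J-domain proteins named Dnaja, Dnajb and Dnajc, and the Bag co-chaperones. They were chosen by gene symbol, and the small heat shock proteins were not among them. Of 72 symbols of these families in the array's annotation, 69 had a probe set of their own with values, out of 13949 genes measured in this way. The 3 without one were Hspa1a, Hspa1b and Hspa1l, the stress-inducible Hsp70 genes and their relative, so the best known marker of the heat shock response has no value of its own in what follows. They share a probe set, whose values are given among the additional observations. RNA came from cultured oligodendrocyte progenitor cells (OPCs) of newborn rats. In the first group, 3 samples had been exposed to fibrinogen for 12 h, and in the second, 3 samples were left unstimulated as controls. Both groups had first been kept for 2 days in the same proliferation medium with N2, B27, NT3 and PDGF, and no strain, sex or fibrinogen dose was given in the sources used here. Each sample was hybridised to 1 Affymetrix array.

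Chaperones bind unfolded stretches of other proteins and help them to fold, to cross membranes or to be degraded. Hsp70 proteins do so in cycles of ATP hydrolysis, which J-domain proteins start and nucleotide exchange factors such as the Hsp110 and Bag proteins end. Hsp90 proteins act later on kinases and receptors, and chaperonins enclose a client in a ring. Cells under proteotoxic stress raise many of these genes together through heat shock factors, which bind repeats of the letters GAA and TTC in promoters, while stress in the endoplasmic reticulum raises another set that includes Hspa5 and Hsp90b1.

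Values are log2 levels, so that a difference of 1 is a doubling. Levels of 955 olfactory and vomeronasal receptor genes, which such cells should not use, served as a measure of background, and their 95th percentile was 5.51. A mean level above it was found for 61 of the 69 members and for 9949 of the 13949 genes (71.3%). The 8 members at or below it were Cct6b, Dnajb7, Dnajb8, Dnajb13, Dnajc5b, Dnajc5g, Hspa12a and Hspa12b. The defining OPC markers Pdgfra, Olig1, Sox10, Ptprz1 and Cspg4 lay above this background on every array. The array fibrinogen 2 stood apart from its group, with an SD of all genes about the group mean of 0.146, against 0.114 and 0.110 for fibrinogen 1 and 3 and 0.0862 to 0.0939 for the controls.

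In limma 3 of 69 members rose and 0 fell (Benjamini-Hochberg adjusted p under 0.05 over all 13949 genes), which is 4.35% of the members beside 3.10% of all genes in either direction, with 1.81% of all genes higher and 1.29% lower. The members that rose were Bag3, Bag1 and Cct6b, and 2 of the 61 members above the receptor percentile rose. With the replicate number as a block 1 member rose, Bag3, and in fits that left out 1 array 1 to 2 did. At an unadjusted p under 0.05, 6 members were higher and 4 lower, or 14.5% of them, beside 15.6% of all genes (8.12% higher and 7.46% lower). The groups did not overlap for 8 members with fibrinogen above control and 9 with fibrinogen below, 24.6% in all, beside 21.3% of all genes (10.7% above and 10.6% below). These shares were close to those of the whole table, so the members as a list are described by their size of change only. Their median log2 difference was 0.01 beside -0.0033 for all genes, and their median absolute difference 0.08 beside 0.0867.

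**Figure D1:**
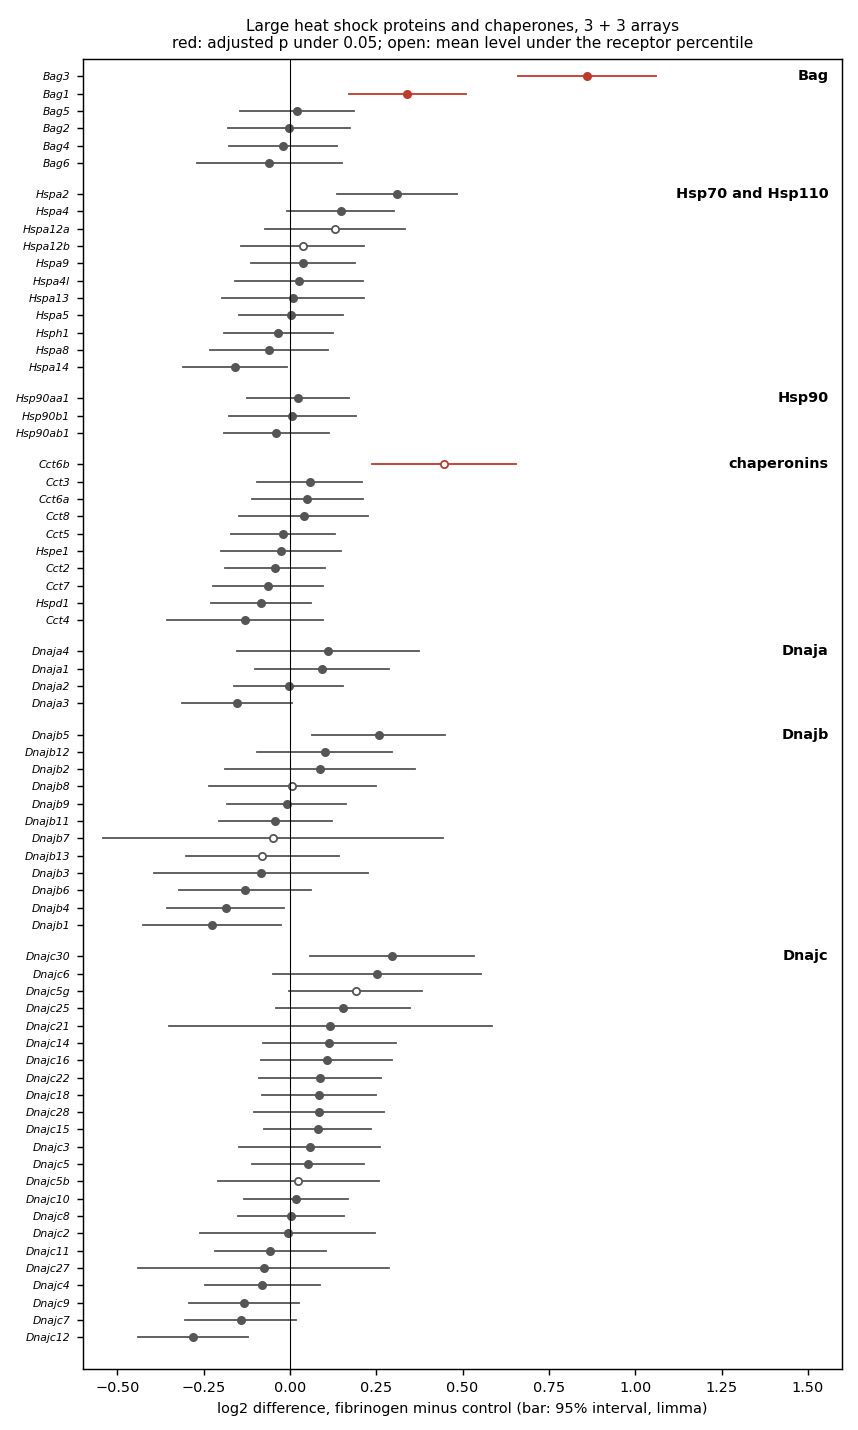
Log2 difference between fibrinogen and control OPCs for each of the 69 members, by family, with its 95% interval from limma (3 arrays in each group; red marks an adjusted p under 0.05, open symbols a mean level under the receptor percentile). Bag3 stands alone at 0.86, Cct6b and Bag1 follow at 0.45 and 0.34, and the other 66 members lie between -0.28 and 0.31.

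For most members the arrays also bounded the size of a measured change. The 95% interval of the difference lay within 1.5-fold of no change, in both directions, for 67 of 69 members (97.1%) and for 93.8% of all genes. The exceptions were Bag3 and Cct6b. For members under the receptor percentile, and for very bright ones, differences can be compressed. Their intervals therefore bound the array signal and not the change of the gene. Of all members 39 had a positive and 30 a negative difference. An absolute difference over 0.2 was found for 13.0% of the members and 17.0% of all genes, and one over 0.44 for 2.90% of the members and 2.92% of all genes.

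**Figure D2:**
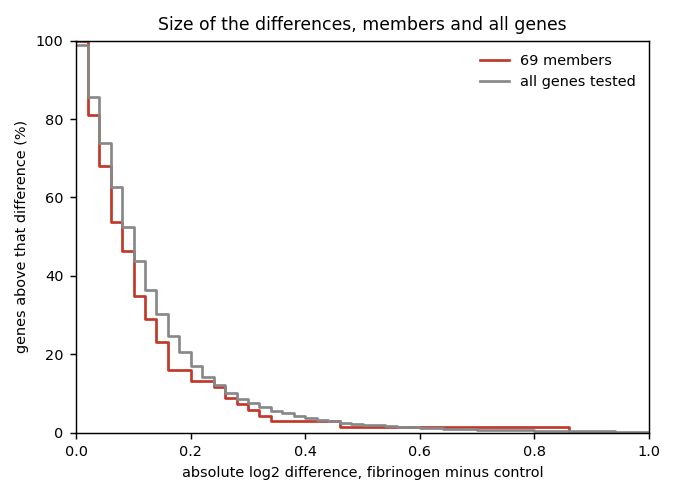
Share of genes (%) whose absolute log2 difference exceeds the value on the horizontal axis, for the 69 members and for all 13949 genes. At 0.2 the share is 13.0% of the members and 17.0% of all genes.

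The promoters of the genes that rose can be read beside those of members that carry the letters heat shock factors bind. A heat shock element of 3 units was searched as GAANNTTC followed by NNGAA, or TTCNNGAA followed by NNTTC, where N is any base, and one of 2 units as GAANNTTC or TTCNNGAA. Each pair covers both strands, and every element of 3 units holds 2 overlapping ones of 2 units. RefSeq promoters of build GRCr8, from 250 bases before to 50 after the gene's start, matched 57 of the 69 members, and not Bag4, Dnaja2, Dnajb4, Dnajc2, Dnajc5b, Dnajc8, Dnajc11, Dnajc12, Dnajc15, Dnajc22, Hsp90aa1 and Hspa12a. An element of 3 units occurred in 6 of these 57 promoters (10.5%), and in 60 of 11506 promoters of the genes tested (0.521%). The 6 were those of Hspa8, Hsph1, Hspd1, Hspe1, Dnaja1 and Cct4. Of these 0 passed the test, with log2 differences from -0.13 to 0.09 and a median of -0.05. Of all genes 3.10% passed in either direction, so a count over 6 genes is too small to be set against that share. Hspd1 and Hspe1 face away from each other and share 211 bases of these windows, so that their element is the same. An element of 2 units occurred in 17 of the 57 (29.8%) and in 13.0% of the promoters of the genes tested. Of these 17 members 1 passed, Bag3, and this count too is small beside the 3.10% of all genes. Bag3 had a single element of 2 units, 132 bases before its start, and neither Bag1 nor Cct6b had one in this window. Shown here are the promoters of the Bag genes that rose and of 3 members with an element of 3 units that did not pass, 5′ to 3′ on the gene's strand, with every element in capitals. Bag3 lies at chr1:192533210-192533509 (+ strand), Bag1 at chr5:60877010-60877309 (- strand), Hspa8 at chr8:50080264-50080563 (+ strand), Hsph1 at chr12:10427118-10427417 (+ strand) and Hspe1 at chr9:64084077-64084376 (+ strand).
Bag3: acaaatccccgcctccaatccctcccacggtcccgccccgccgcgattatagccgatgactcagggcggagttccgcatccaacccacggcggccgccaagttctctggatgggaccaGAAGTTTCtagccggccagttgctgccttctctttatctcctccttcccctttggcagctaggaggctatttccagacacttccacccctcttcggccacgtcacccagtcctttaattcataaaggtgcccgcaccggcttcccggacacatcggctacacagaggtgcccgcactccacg
Bag1: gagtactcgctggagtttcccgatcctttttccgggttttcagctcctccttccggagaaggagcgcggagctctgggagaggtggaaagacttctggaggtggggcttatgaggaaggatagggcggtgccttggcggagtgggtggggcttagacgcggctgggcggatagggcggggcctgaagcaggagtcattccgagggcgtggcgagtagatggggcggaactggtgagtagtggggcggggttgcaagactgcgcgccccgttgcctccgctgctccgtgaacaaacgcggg
Hspa8: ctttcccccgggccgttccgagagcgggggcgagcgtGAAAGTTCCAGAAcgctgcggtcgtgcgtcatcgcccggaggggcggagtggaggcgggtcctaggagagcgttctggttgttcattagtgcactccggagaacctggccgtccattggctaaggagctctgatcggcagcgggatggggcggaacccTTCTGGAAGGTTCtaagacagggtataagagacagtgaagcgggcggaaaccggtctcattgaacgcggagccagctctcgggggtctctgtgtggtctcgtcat
Hsph1: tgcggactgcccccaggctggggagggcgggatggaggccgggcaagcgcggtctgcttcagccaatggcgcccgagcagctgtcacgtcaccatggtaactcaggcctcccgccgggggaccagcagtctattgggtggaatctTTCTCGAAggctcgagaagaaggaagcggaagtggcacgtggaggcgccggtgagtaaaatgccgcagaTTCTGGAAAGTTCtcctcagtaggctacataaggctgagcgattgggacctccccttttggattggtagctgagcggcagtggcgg
Hspe1: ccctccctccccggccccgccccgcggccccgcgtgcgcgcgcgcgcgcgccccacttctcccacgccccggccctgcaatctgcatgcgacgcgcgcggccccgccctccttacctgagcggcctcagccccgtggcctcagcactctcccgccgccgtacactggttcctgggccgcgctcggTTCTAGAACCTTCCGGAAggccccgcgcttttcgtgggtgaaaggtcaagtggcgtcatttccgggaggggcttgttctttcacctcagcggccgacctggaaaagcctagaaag
In Hspa8 the elements of 3 units began 213 and 55 bases before the start, in Hsph1 36 bases before it, and in Hspe1 65 and 60 bases before it, where they overlap. A match says only that these letters stand in this window. The lack of a match does not exclude elements with other letters or outside the window.

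Bag proteins bind the ATPase domain of Hsp70 and release its nucleotide, and Bag3 rose most of all members. Bag3 couples Hsp70 to small heat shock proteins such as Hspb8 and steers damaged clients to autophagy. Its log2 levels were 8.95, 8.79 and 8.80 on the fibrinogen arrays, against 8.13, 7.95 and 7.88 on the control arrays. The groups were far apart, with the lowest fibrinogen value well above the highest control. The difference was 0.86 ± 0.09 (SE, limma, adjusted p = 0.00207), a 1.82-fold rise. In such bulk RNA a change in the share of a cell type and a change of level per cell cannot be told apart. Bag3 passed in every alternative run, and its difference ranged from 0.81 to 0.93 in the fits that left out 1 array, with adjusted p-values of 0.00644 to 0.0174 (limma).

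Bag1, which links Hsp70 to the proteasome, had log2 levels of 10.03, 10.19 and 10.00 on the fibrinogen arrays, against 9.73, 9.73 and 9.74 on the control arrays. The controls were almost equal and all lay below the fibrinogen values. The difference of 0.34 ± 0.07 (SE), or 1.27-fold, passed narrowly in limma (adjusted p = 0.0496). The call was lost after median centring (adjusted p = 0.0639), with the replicate number as a block (0.0902), and when any single array was left out, at 0.101, 0.0571 and 0.0780 without fibrinogen 1, 2 and 3, and 0.168, 0.181 and 0.158 without control 1, 2 and 3 (limma). Its difference was 0.33 after median centring, 0.34 with the block and 0.28 to 0.38 in the fits that left out 1 array, the lowest without fibrinogen 2.

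The other 4 Bag genes did not pass, and their log2 differences lay within 0.06 of 0. Bag2, an inhibitor of the ubiquitin ligase that acts with Hsp70, had a difference of -0.0033 (95% interval -0.18 to 0.17). Bag4, known as a silencer of death domains, had -0.02 (-0.18 to 0.14), and Bag5 had 0.02 (-0.14 to 0.18). Bag6, which handles membrane proteins that failed to insert, had -0.06 (-0.27 to 0.15).

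**Figure D3:**
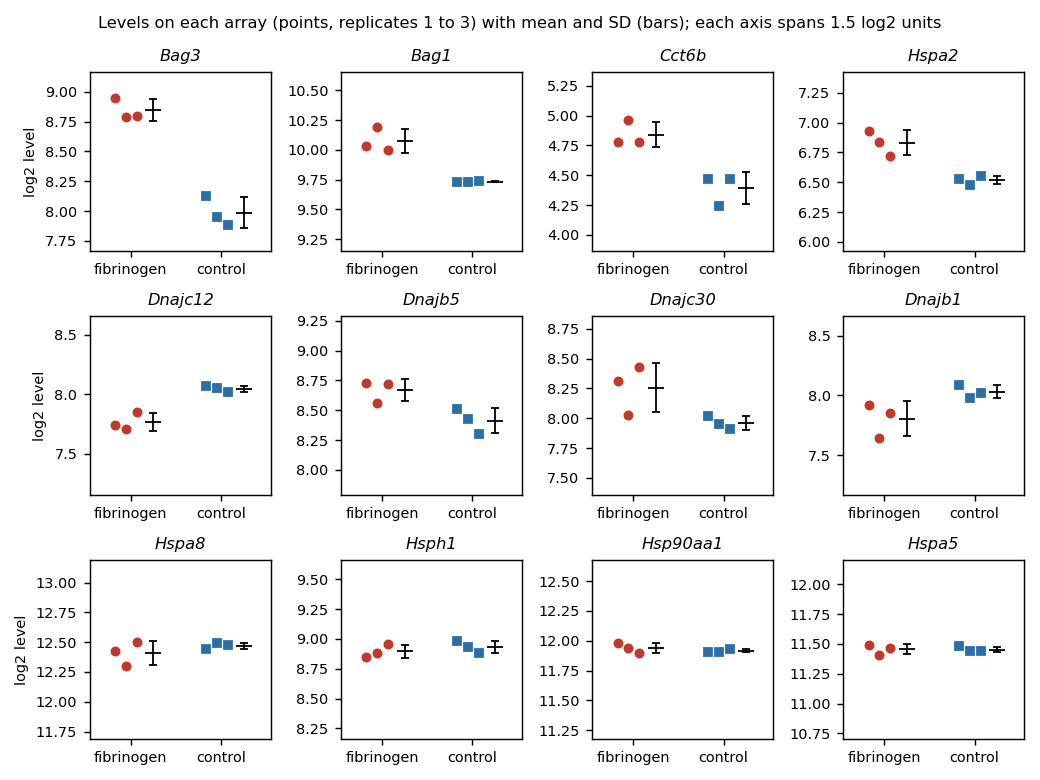
Log2 level of 12 members on each array (red circles, fibrinogen replicates 1 to 3; blue squares, control replicates 1 to 3), with the mean and SD of each group beside the points. Every vertical axis spans the same 1.5 log2 units, so that the gap of Bag3 (8.85 in fibrinogen, 7.99 in control cells) can be set against the near-level values of Hspa8, Hsph1, Hsp90aa1 and Hspa5.

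No Hsp70 or Hsp110 gene passed in limma, and of the 11 measured, 1 was higher (Hspa2) and 1 lower (Hspa14) at an unadjusted p under 0.05. At that threshold 8.12% of all genes were higher and 7.46% lower. Hspa8, the constitutive Hsp70 of the cytosol, had log2 levels of 12.43, 12.30 and 12.50 in fibrinogen cells, against 12.44, 12.49 and 12.48 in control cells. Apart from the low value of fibrinogen 2, the groups lay on top of each other, and the difference was -0.06 ± 0.08 (SE, adjusted p = 0.780, limma). The other 7 probe sets paired with Hspa8 gave differences of -0.07 to 0.12. RefSeq lists 33 pseudogenes of Hspa8 in the rat genome, and probes of such a gene may also bind their transcripts, so the level of Hspa8 is uncertain. Hspa5, or BiP, the Hsp70 of the endoplasmic reticulum, had 11.49, 11.41 and 11.47 in fibrinogen cells, against 11.48, 11.44 and 11.44 in control cells. Its difference was 0.0033, with a 95% interval from -0.15 to 0.15. Hspa9, the mitochondrial Hsp70, had 10.07, 10.13 and 10.10 in fibrinogen cells, against 10.05, 10.03 and 10.11 in control cells, which overlap.

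Hspa2, an Hsp70 best known from the testis, had the lowest adjusted p of the members that did not pass, with log2 levels of 6.93, 6.84 and 6.72 in fibrinogen cells, against 6.53, 6.48 and 6.55 in control cells. The groups did not overlap, and the difference was 0.31 ± 0.08 (SE, adjusted p = 0.0749, limma). It passed when genes of low level were left out, at an adjusted p of 0.0438 above the receptor percentile. Hspa14, an Hsp70 that works at the ribosome, had 8.76, 8.73 and 8.80 in fibrinogen cells, against 8.96, 8.89 and 8.92 in control cells. All its fibrinogen values lay below the controls, with a difference of -0.16 ± 0.07 that did not pass (adjusted p = 0.285, limma). The Hsp110 gene Hsph1, one of the genes that heat raises most in mammalian cells, had 8.85, 8.88 and 8.96 in fibrinogen cells, against 8.98, 8.93 and 8.88 in control cells. These overlap, and the interval of its difference ran from -0.19 to 0.13. Hspa4, another Hsp110 gene, had 10.38, 10.48 and 10.41 in fibrinogen cells, against 10.28, 10.31 and 10.24 in control cells, which do not overlap, and a difference of 0.15 ± 0.07 (SE, adjusted p = 0.348, limma). Hspa4l had a difference of 0.03 and Hspa13, a microsomal Hsp70, of 0.01. The distant Hspa12a and Hspa12b, both under the receptor percentile, had 0.13 and 0.04.

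None of the 3 Hsp90 genes passed in limma, at an adjusted or an unadjusted p under 0.05. Hsp90aa1, the stress-inducible cytosolic form, had log2 levels of 11.98, 11.94 and 11.90 in fibrinogen cells, against 11.91, 11.91 and 11.93 in control cells. Hsp90ab1, the constitutive form, had 12.59, 12.63 and 12.70 in fibrinogen cells, against 12.68, 12.69 and 12.67 in control cells. The groups of both genes overlapped, with differences of 0.02 ± 0.07 and -0.04 ± 0.07 (SE). Hsp90b1, the form in the endoplasmic reticulum, had 11.84, 12.06 and 11.89 in fibrinogen cells, against 11.98, 11.92 and 11.87 in control cells. Over the 3 genes the 95% intervals ran from -0.19 to 0.19 at most. RefSeq lists 16 pseudogenes of Hsp90aa1 and 23 of Hsp90ab1, so these levels too are uncertain.

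Of 10 chaperonin genes 1 rose and 0 fell, beside 1.81% of all genes higher and 1.29% lower. The mitochondrial chaperonin Hspd1 had log2 levels of 11.39, 11.39 and 11.37 in fibrinogen cells, against 11.49, 11.45 and 11.46 in control cells. The replicates agreed so closely that the groups did not overlap, yet the difference was only -0.08 ± 0.06 (SE, adjusted p = 0.611, limma). A dimmer probe set paired with Hspd1 had 8.38, 8.42 and 8.28 in fibrinogen cells, against 8.42, 8.41 and 8.45 in control cells. These overlap, with a difference of -0.07. RefSeq lists 20 pseudogenes of Hspd1, so its level too is uncertain. Hspe1, the lid of Hspd1, had 12.05, 11.84 and 11.95 in fibrinogen cells, against 12.01, 11.95 and 11.96 in control cells, which overlap. Of the genes for subunits of the CCT ring, which folds actin and tubulin, 7 are members by their symbol, Cct2, Cct3, Cct4, Cct5, Cct6a, Cct7 and Cct8, and 0 of them passed at an adjusted or an unadjusted p under 0.05 (limma). Their differences ran from -0.13 to 0.06 with a median of -0.02. The lowest was that of Cct4, with 11.16, 10.85 and 11.20 in fibrinogen cells, against 11.22, 11.16 and 11.22 in control cells, where fibrinogen 2 alone was low. Its difference was -0.13 with all arrays and -0.02 without fibrinogen 2. Cct2 had 11.49, 11.50 and 11.50 in fibrinogen cells, against 11.55, 11.55 and 11.52 in control cells, which do not overlap, and a difference of -0.04 ± 0.06 (SE).

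The chaperonin gene that rose was Cct6b, a form of the CCT6 subunit known from testis. It had log2 levels of 4.78, 4.96 and 4.78 in fibrinogen cells, against 4.47, 4.24 and 4.47 in control cells. The groups did not overlap, but every value lay below the receptor percentile of 5.51, in the range of genes that the cells should not use. The difference was 0.45 ± 0.09 (SE, adjusted p = 0.0396, limma). The call was lost with the replicate block (adjusted p = 0.0814) and in each fit on 5 arrays, at 0.0837, 0.0716 and 0.0765 without fibrinogen 1, 2 and 3, and 0.0912, 0.146 and 0.102 without control 1, 2 and 3 (limma). Its difference was 0.45 with the block and 0.37 to 0.48 in the fits on 5 arrays. Cct6a, the general form of the subunit, had a difference of 0.05. RefSeq lists 14 pseudogenes of Cct6a, so its level too is uncertain. Pseudogenes are listed for 22 of the 69 members.

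None of the 39 J-domain genes passed in limma. At an unadjusted p under 0.05, 2 were higher and 3 lower, beside 8.12% of all genes higher and 7.46% lower. The differences of the 39 ran from -0.28 to 0.30 with a median of 0.02. Among the 4 Dnaja genes, Dnaja1, a heat-inducible partner of Hspa8, had log2 levels of 11.12, 11.33 and 11.06 in fibrinogen cells, against 11.07, 11.12 and 11.04 in control cells, which overlap. Its difference of 0.09 was 0.01 without fibrinogen 2. Dnaja3, a mitochondrial partner of Hspa9, had 7.97, 7.90 and 8.05 in fibrinogen cells, against 8.14, 8.14 and 8.10 in control cells. These groups did not overlap, and the difference was -0.15 ± 0.07 (SE, adjusted p = 0.344, limma). Dnaja4 had 6.40, 6.31 and 6.50 in fibrinogen cells, against 6.03, 6.46 and 6.39 in control cells, which overlap. Its difference was 0.11 with all arrays and -0.02 without control 1, and that of Dnaja2 was -0.0033.

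Of the 12 Dnajb genes 0 passed, and Dnajb1 and Dnajb4, both partners of Hsp70, had the lowest differences. Dnajb1, the main heat-inducible J-domain protein, had log2 levels of 7.92, 7.64 and 7.85 in fibrinogen cells, against 8.09, 7.98 and 8.02 in control cells. All the fibrinogen values lay below the controls, and the difference was -0.23 ± 0.09 (SE, adjusted p = 0.255, limma). Fibrinogen 2 was the lowest, and without it the difference was -0.145 (adjusted p = 0.321, limma). The related Dnajb4 had 8.02, 7.87 and 7.86 in fibrinogen cells, against 8.15, 8.08 and 8.08 in control cells. It too was lower on each fibrinogen array than on any control array, with a difference of -0.19 ± 0.07 that did not pass (adjusted p = 0.265). Dnajb5, also a close relative of Dnajb1, lay on the other side, with 8.73, 8.56 and 8.72 in fibrinogen cells, against 8.51, 8.43 and 8.30 in control cells. Its groups did not overlap either, and the difference was 0.26 ± 0.08 (adjusted p = 0.172).

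The other Dnajb genes had overlapping groups. Dnajb2, Dnajb6 and Dnajb8, which keep aggregation-prone proteins soluble, had differences of 0.09, -0.13 and 0.0067. Dnajb8 lay under the receptor percentile, and RefSeq lists 10 pseudogenes of Dnajb6, so its level is uncertain. Dnajb9 and Dnajb11, which serve Hspa5 in the endoplasmic reticulum, had -0.01 and -0.04, and Dnajb12, anchored in its membrane, had 0.10. The 2 probe sets of Dnajb12 held identical values on all 6 arrays and count as a single measurement. Dnajb3 had -0.08, and Dnajb7 and Dnajb13, both under the receptor percentile, had -0.05 and -0.08.

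The Dnajc genes share little beyond the J domain, and 0 of 23 passed. Dnajc12, which assists the hydroxylases of aromatic amino acids, had the lowest adjusted p among them, with log2 levels of 7.74, 7.71 and 7.85 in fibrinogen cells, against 8.07, 8.05 and 8.02 in control cells. Each fibrinogen value lay below each control, and the difference was -0.28 ± 0.07 (SE, adjusted p = 0.0768, limma). It passed when genes under the receptor percentile were left out (adjusted p = 0.0434). Dnajc30, a mitochondrial protein, had 8.31, 8.03 and 8.43 in fibrinogen cells, against 8.02, 7.95 and 7.91 in control cells, with fibrinogen 2 barely above the highest control. Its difference was 0.30 ± 0.10 (adjusted p = 0.205) with all arrays and 0.41 without fibrinogen 2, where it passed (adjusted p = 0.0345), and it also passed with array weights (0.0347).

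Of the Dnajc genes that act on RNA, ribosomes and chromatin, Dnajc8 of the spliceosome had a difference of 0.0033 and the ribosome-bound Dnajc2 one of -0.0067. Dnajc21, which helps to assemble the large ribosomal subunit, had 8.04, 8.92 and 8.21 in fibrinogen cells, against 8.46, 8.26 and 8.10 in control cells, so that fibrinogen 2 alone lay above all the others. The histone chaperone Dnajc9 had 8.85, 8.92 and 8.89 in fibrinogen cells, against 9.10, 8.98 and 8.98 in control cells. Its groups did not overlap, and its difference of -0.13 ± 0.07 did not pass (adjusted p = 0.420, limma).

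Of those that act on membranes, Dnajc5, or cysteine string protein, a chaperone of synaptic vesicles, had a difference of 0.05. Dnajc6, or auxilin, which strips the coat from clathrin vesicles, had 6.28, 6.41 and 5.88 in fibrinogen cells, against 6.06, 5.90 and 5.85 in control cells, which overlap. In the endoplasmic reticulum, Dnajc3 had a difference of 0.06 and Dnajc10, which reduces disulfides there, of 0.02. In mitochondria, Dnajc11 had -0.06 and Dnajc15 had 0.08. Dnajc7, which passes clients between Hsp70 and Hsp90, had 11.08, 10.95 and 11.04 in fibrinogen cells, against 11.12, 11.22 and 11.16 in control cells, with no overlap and a difference of -0.14 ± 0.07 (adjusted p = 0.388, limma). Dnajc25, Dnajc14, Dnajc16, Dnajc22, Dnajc18 and Dnajc28 had differences of 0.15, 0.11, 0.11, 0.09, 0.08 and 0.08, and Dnajc27 and Dnajc4 of -0.08 each. Dnajc5g and Dnajc5b lay under the receptor percentile and had 0.19 and 0.02, and the groups of Dnajc5g did not overlap.

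**Figure D4:**
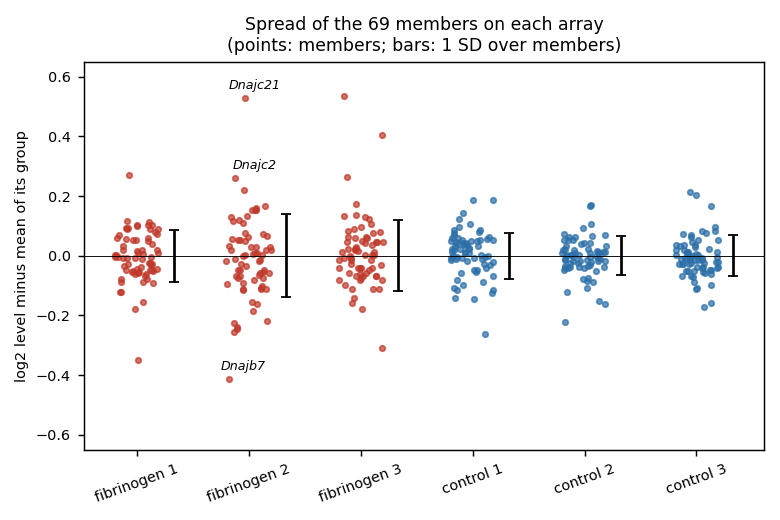
Log2 level of each of the 69 members minus the mean of its own group, on each of the 6 arrays; bars show 1 SD over the members. The SD was 0.138 on fibrinogen 2 and 0.120 on fibrinogen 3, against 0.0653 to 0.0776 on the controls.

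How the members varied within a group differed between arrays, as the plot of their spread shows. Fibrinogen 2 was the array farthest from the group mean for 35 of the 69 members, against 12 for fibrinogen 1 and 22 for fibrinogen 3. Among controls, control 1 was farthest for 34 members. The SD over the members was above that of all genes on fibrinogen 3 (0.120 beside 0.110) and below it on the other 5 arrays. The farthest single values were those of Dnajb7 on fibrinogen 3 (0.54 above its group mean), a gene under the receptor percentile, and Dnajc21 on fibrinogen 2 (0.53 above). Of the members that rose, Bag3 had its highest value on fibrinogen 1, and Bag1 and Cct6b had theirs on fibrinogen 2.

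Seen by place in the cell, the lists of members had medians close to 0. A list of cytosolic members, most of them stress-inducible, also holds the constitutive Hspa8. Of its 8 measured genes (Hsph1, Hsp90aa1, Hspa8, Hspa4l, Dnaja1, Dnajb1, Dnajb4 and Bag3), 1 rose, Bag3, and 0 fell, with a median difference of -0.0050. Of 7 members of the endoplasmic reticulum 0 passed, at an adjusted or an unadjusted p under 0.05 (limma), and all 7 differences lay between -0.04 and 0.06. Of 7 mitochondrial members 0 passed, with a median of -0.03. Dnajc30 alone was higher at an unadjusted p under 0.05 (limma), beside 8.12% of all genes.

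Genes outside the families that work with them were read from lists drawn up by function. Of 13 measured heat shock factors and heat-inducible genes 3 rose and 0 fell, beside 1.81% of all genes higher and 1.29% lower. Those that rose were all small heat shock proteins. The list was chosen with earlier results of these data known, so the count is a description only. Hspb1 averaged 10.05 ± 0.10 in fibrinogen cells and 8.26 ± 0.22 in control cells as log2 levels (SD, n = 3 each). Hspb8, the partner of Bag3, averaged 6.92 ± 0.27 in fibrinogen cells and 6.29 ± 0.15 in control cells, and Cryab 7.53 ± 0.05 in fibrinogen cells and 6.89 ± 0.12 in control cells. Hspb1 differed by 1.79 ± 0.11 (SE, adjusted p = 0.000293, limma) and Cryab by 0.65 ± 0.08 (adjusted p = 0.00428). The difference of Hspb8, 0.63 ± 0.14, passed narrowly (SE, adjusted p = 0.0481, limma), and alternative runs are not given for it. The heat shock factor genes Hsf1 and Hsf2 had differences of -0.02 and -0.05 and did not pass. Hsf4, another heat shock factor gene, had 5.23, 5.18 and 5.35 in fibrinogen cells, against 5.44, 5.40 and 5.41 in control cells, all under the receptor percentile. Its groups did not overlap, and its difference of -0.16 ± 0.07 did not pass (SE, adjusted p = 0.325, limma). The heat-inducible co-chaperones Stip1 (-0.06), Fkbp4 (-0.13) and Chordc1 (0.15) did not pass, nor did Serpinh1, the collagen chaperone (0.31 ± 0.09, adjusted p = 0.116). The median over the list was 0.01.

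**Figure D5:**
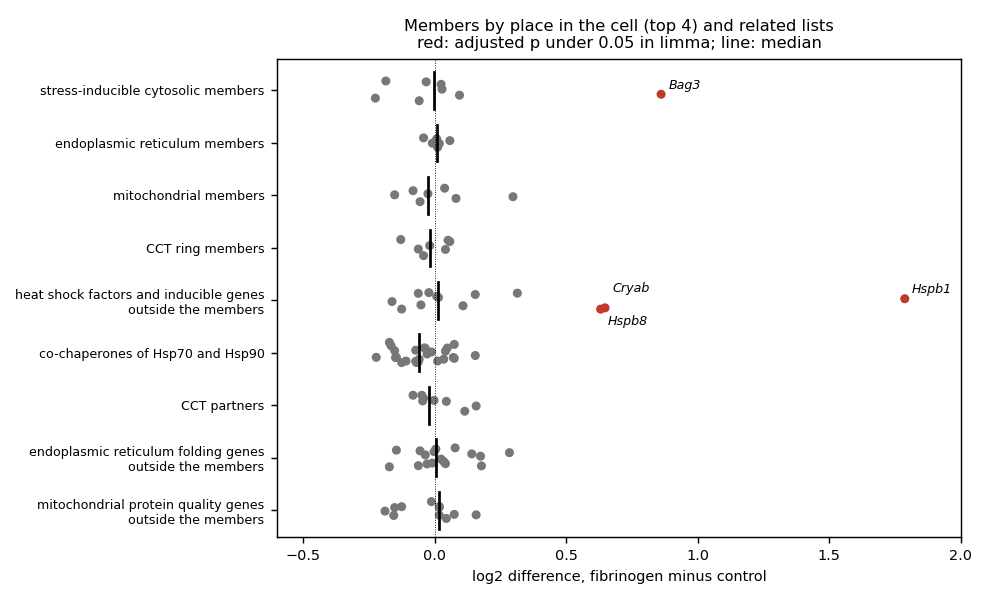
Log2 difference between fibrinogen and control cells of each measured gene in 4 lists of members by place in the cell (top) and 5 lists of related genes; a vertical line marks the median of each list and red marks an adjusted p under 0.05 in limma. Bag3, Hspb1, Hspb8 and Cryab stand to the right, and the medians lie between -0.06 and 0.02.

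In the remaining lists no gene passed. Of 26 co-chaperones of Hsp70 and Hsp90, 0 passed at an adjusted or an unadjusted p under 0.05 (limma), with a median of -0.06. The largest differences were those of Ptges3, or p23 (-0.22 ± 0.13), and Stub1, the ubiquitin ligase that acts with Hsp70 (-0.17 ± 0.09). Ptges3 had 9.99, 9.41 and 9.80 in fibrinogen cells, against 9.96, 9.91 and 10.00 in control cells, with fibrinogen 2 far below the rest. Of 8 partners of CCT 0 passed at either threshold, with a median of -0.02. The largest differences were those of Txndc9 (0.16 ± 0.11) and the prefoldin subunit Pfdn5 (0.11 ± 0.06). Txndc9 had 9.30, 9.68 and 9.32 in fibrinogen cells, against 9.28, 9.30 and 9.25 in control cells, where fibrinogen 2 alone was high. Tcp1, a subunit of the ring that does not carry a Cct symbol and stands in this list, had a difference of -0.0033. Of 17 further folding genes of the endoplasmic reticulum 0 passed and 2 were higher at an unadjusted p under 0.05 (limma), Ddit3, a transcription factor of stress in that compartment (0.28 ± 0.12, adjusted p = 0.314), and Calr, a lectin chaperone (0.18 ± 0.07, adjusted p = 0.279). Their median was 0.0033. Of 11 mitochondrial quality genes 0 passed at either threshold, with a median of 0.02. The largest differences there were those of the proteases Yme1l1 (-0.19 ± 0.09) and Lonp1 (-0.16 ± 0.10), beside 0.16 ± 0.07 for Pam16 of the import motor.

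Some markers of another cell type also differed between the groups. Of 7 measured astrocyte markers 2 rose, Gfap by 1.24 ± 0.16 and Slc1a2 by 0.65 ± 0.07 (SE, limma), and 0 fell. Of all genes 1.81% were higher and 1.29% lower. S100b (0.46, adjusted p = 0.0516, limma) missed the threshold narrowly. Slc1a3 (0.23) and Aldoc (0.21) did not pass, and Aqp4 (0.01) and Gja1 (-0.04) hardly differed. At an unadjusted p under 0.05, 5 of the 7 were higher (limma), beside 8.12% of all genes. All 7 lay above the receptor percentile. The mean log2 level over the list was 8.64 to 8.74 on the fibrinogen arrays, against 8.28 to 8.33 on the control arrays. Of 7 OPC markers 4 fell, Pdgfra, Cspg4, Gpr17 and Neu4, while Olig1, Sox10 and Ptprz1 did not pass. The mean over the 7 was 10.20 to 10.37 on the fibrinogen arrays, against 10.60 on each of the control arrays. The part of these shifts in the rise of Bag3 was not tested. Of 8 microglia markers 3, of 8 neuron markers 5, of 4 endothelial markers 1 and of 5 pericyte and fibroblast markers 3 lay above the receptor percentile. Of all the markers of these 4 kinds of cell 1 passed in limma, the neuron gene Gad2, which fell by 0.58 and had a mean under the receptor percentile in both groups.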

How the data were processed

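Levels were deposited by the authors as log2 values per probe set. RMA and limma are the tools listed per the submitters' processing notes, with no version or role. The scale was inferred from the values, and centring is not stated. On such arrays, differences of dim and of very bright genes can be compressed. Of 26312 probe sets 1206 were blank. The platform's annotation paired 14700 of those with values with 1 symbol, 275 with several and 10131 with none. The probe set with the highest mean was kept per gene, and RefSeq held all 69 members under the same symbol by Entrez ID. limma 3.58.1 in R 4.3.3 tested fibrinogen minus control over 13949 genes (lmFit, eBayes, two-sided, no covariates, Benjamini-Hochberg). SE and 95% intervals are moderated. The procedure was tested on simulated data. The labels do not say whether replicates were separate cultures, so p-values measure the spread between these samples only, and the number of arrays limits precision. An exact permutation test of 3 against 3 arrays could not go below 0.10 and was not run. The most alike pair of arrays shared identical values for 3.64% of genes.

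Every member is given. Full values were printed for members that passed, for 12 fixed ones with a probe set of their own, for the 2 largest differences per family, and for further members chosen after their values were seen. The members and lists were chosen with earlier results of these data known. Alternatives were median centring, 2 filters on dim genes, means over probe sets, an intensity trend, array weights, a replicate block and leaving out each array. Protein features were not examined here.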

Additional observations from a re-analysis of the deposited data

Results flagged for a closer look

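A probe set of these families stood outside the comparisons of the members. Probe set 10828154 is paired in the annotation with Hspa1a, Hspa1b and Hspa1l together, the members with no probe set of their own, so its values cannot be given to any single gene. Its log2 levels were 6.89, 6.99 and 6.76 on the fibrinogen arrays, against 6.69, 6.69 and 6.66 on the control arrays. The groups did not overlap, as was the case for 10.7% of the genes tested with fibrinogen above control. In a limma fit over all 25106 probe sets with values, added after the data were seen, the difference was 0.20 ± 0.08 (SE, 95% interval 0.02 to 0.38) and did not pass (adjusted p = 0.307).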

How the results depend on the processing

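Bag3 passed in all 13 alternatives. Of 284 pairs of a gene and an alternative, over 22 named members, 251 kept direction and side of the threshold, 15 lost a call (Bag1 and Cct6b), 6 gained one (Hspa2, Dnajc12 and Dnajc30) and 12 changed sign. The number of members that rose was 3, but 2 after median centring, 4 with array weights, 1 with the replicate block and 1 to 2 without 1 array. In either filter on dim genes it was 3 as well, but these were Bag1, Bag3 and Hspa2, since Cct6b was filtered out. The number that fell was 0, and 1 in either filter on dim genes, which left 61 members to test. Over the whole table, array weights gave 383 genes higher and 276 lower, and fits without 1 array gave 96 to 263 higher and 55 to 173 lower, against 252 and 180. The median difference of the members was 0.01, -0.0033 after median centring, and 0.0067 to 0.0233 without 1 array, the highest without fibrinogen 2. Signs changed for 4 members. Hsp90b1 had -0.0067 after median centring, -0.0276 with array weights and -0.0583 to 0.0517 without 1 array, Hspa5 -0.01 after median centring and -0.0133 to 0.0267 without 1 array, Hspe1 0.0033 with array weights and -0.0783 to 0.0267 without 1 array, and Dnaja4 -0.0217 to 0.1933 without 1 array. Fits without 1 array have fewer samples and so fewer degrees of freedom; other causes were not tested. Same-numbered arrays of the groups correlated at 0.0109 to 0.0278 in their deviations from the group means, and other pairs at -0.0213 to -0.00158, so each array correlated best with its own number, but too weakly to treat the numbers as a pairing. The replicate block gave 195 genes higher and 120 lower. Signal near background limits what can be said of the 8 members under the receptor percentile.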
